A study of Homo sapiens with 6 samples.

Results

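The cytosolic ribosome is built from ribosomal RNA and a set of ribosomal proteins, each encoded as a rule by a single active gene. Rows of the deposited table were taken as ribosomal protein genes when their symbol was RPL or RPS followed by a number and at most an A or X, one of the stalk genes RPLP0, RPLP1 and RPLP2, or RPSA. Of 39012 rows, 77 met this rule, 46 of the large subunit and 31 of the small subunit. In 76 of them reads were present. RPS27A, one of the 77, encodes a ribosomal protein fused to ubiquitin. FAU, which encodes one fused to a ubiquitin-like protein, lies outside the rule and was described apart.

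Ribosomal proteins are made in near equal amounts, and their transcripts are among the most abundant in a dividing cell. Most begin with a terminal oligopyrimidine tract, a C at the cap followed by a run of C and T, which ties their translation to mTOR through the binding protein LARP1. T cells raise ribosome production when they leave rest and start to divide. The human genome also carries many processed pseudogenes of ribosomal protein genes, copies of the spliced transcript that lack introns and often keep most of its sequence.

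Jurkat is an established human T cell leukaemia line, and the labels list its cell type as an ouabain-induced leukaemia line. One group of 3 libraries came from Jurkat cells with stable overexpression of SCML4, a Polycomb-group related protein (SCML4 libraries). The other group of 3 came from Jurkat control cells labelled EV. All 6 libraries followed 6 h of PMA at 100 ng/ml with ionomycin at 1 µM, which together mimic T cell receptor signalling, so no unstimulated cells were compared. The sources used here do not name the promoter of the SCML4 construct or say whether the lines are clones. Whether the 3 libraries of a group stem from different cultures is not stated in the labels. The p-values therefore reflect the spread among these libraries, and that spread may be technical.

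Levels are given as CPM, reads per 1000000 reads of the library, from reads worked out of the deposited FPKM values. Library totals were 9064152, 10336597 and 8953671 reads in the SCML4 libraries and 9631850, 8968067 and 9680394 in the EV libraries. SCML4 itself had 570, 657 and 506 reads in the SCML4 libraries, against 7, 2 and 1 in the EV libraries. All 10 T cell markers examined, among them CD3E and LCK, were above 1 CPM in every library, with a summed level of 3260 to 3360 CPM in SCML4 and 3130 to 3270 CPM in EV. Of 15 markers of B, myeloid, erythroid, epithelial and fibroblast cells, CD79A of the B cell receptor had 30.3, 32.7 and 31.4 CPM in SCML4 and 33.3, 23.1 and 21.5 CPM in EV, and the other 14 were at or below 2.68 CPM in every library. In RNA from a whole culture, fewer cells that express a gene and less RNA per cell cannot be told apart.

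Transcript starts are shown first, because the oligopyrimidine tract is the sequence feature that most of these genes share. Promoter windows from RefSeq on GRCh38.p14, with 250 bases before and 50 after each annotated start, were found for 62 of the 77 genes. A C followed by at least 4 pyrimidines stood exactly at the start in 42 of the 62 genes (67.7%), against 4.6% of 15842 protein-coding genes. Within 5 bases of the start it was found in 80.6% of the ribosomal protein genes and 22.1% of the protein-coding genes. The lines below give 10 bases before and 20 from the annotated start, for 6 genes with a tract at the start, for RPL19 and for RPL13. Capitals mark the tract from the start or, in RPL19, from the edge of the search 5 bases upstream. The printed RPL19 bases before that edge are pyrimidines as well, so its run begins further upstream. RPL13 had no tract within 5 bases.
RPLP0, chr12:120201092-120201121, minus strand: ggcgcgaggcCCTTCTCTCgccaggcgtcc
RPLP1, chr15:69452808-69452837, plus strand: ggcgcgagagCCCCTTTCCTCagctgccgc
RPL38, chr17:74203668-74203697, plus strand: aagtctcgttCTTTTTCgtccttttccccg
RPL36A, chrX:101391001-101391030, plus strand: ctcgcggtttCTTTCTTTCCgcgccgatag
RPS6, chr9:19380217-19380246, minus strand: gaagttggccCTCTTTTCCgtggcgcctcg
RPS14, chr5:150449720-150449749, minus strand: ccctcccactCTCTCTTTCCggtgtggagt
RPL19, chr17:39200273-39200302, plus strand: tctccCCTTCgcagataatgggaggagccg
RPL13, chr16:89560647-89560676, plus strand: tgctatcatcccagagtgcattgcggggcc

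In the same promoter windows the motif CCGGAAG, on either strand, was present in 33.9% of the ribosomal protein genes and 14.2% of the protein-coding genes. The motif CTCTTTCC, itself made of pyrimidines, was present in 14.5% and 3.1%, and TATAAA in 8.1% and 9.6%. In RPS14 the motif CTCTTTCC lies inside the tract printed above. Whether it overlapped the tracts of the other genes was not tested. A match describes these letters in these windows and is no evidence of binding.

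More reads lay in the pseudogene rows than in the ribosomal protein genes themselves. The table holds 1281 rows whose symbol joins a ribosomal protein name to a pseudogene number, and 567 of them had reads. Together these rows held 21541, 19853 and 20656 CPM in the SCML4 libraries and 17480, 20199 and 20650 CPM in the EV libraries. The 77 genes held 9812, 9606 and 8176 CPM in SCML4 and 8979, 7578 and 8511 CPM in EV. The gene rows therefore carried 31.3%, 32.6% and 28.4% of the combined reads in SCML4 (30.8 ± 2.15, mean and SD, n = 3) and 33.9%, 27.3% and 29.2% in EV (30.1 ± 3.4, n = 3). The groups overlap, and EV replicate 1 had both the lowest pseudogene sum and the highest gene-row share of the 6 libraries.

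The split differed widely between genes. In 35 of the 76 genes with reads, the pseudogene rows held more reads than the gene, in 30 genes they held under 10%, and in 8 genes over 90%. RPLP0, the base of the ribosomal stalk, had 185, 185 and 153 CPM in SCML4 and 158, 135 and 167 CPM in EV. Its pseudogene row RPLP0P6 had 2900, 2680 and 2670 CPM in SCML4 and 2400, 2810 and 2700 CPM in EV, so that 94.3% of the reads under this name lay in pseudogene rows. RPL39, a small protein of the exit tunnel, had 98.1% in pseudogene rows. RPL8, which binds the RNA core next to the peptidyl transferase centre, had 0.0280%, and RPLP2 of the stalk had none.

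How much of a gene's coding sequence recurs in its pseudogenes varied along with this split. Each coding sequence of GENCODE 29 was cut into all windows of 50 bases, and windows found unaltered in a pseudogene of the same name were counted. The share of such windows and the share of reads in pseudogene rows had a Spearman correlation of 0.63 across 76 genes, a description of genes that share libraries and are not independent. The 13 genes with no such window had a median of 0.592% of reads in pseudogene rows, the 35 genes with some windows but under 50% had 21.4%, and the 28 genes with 50% or more had 76.3%. RPL32, among the 13, had 78.8% in pseudogene rows. However, its pseudogene with most reads, RPL32P18, had no sequence under that name in GENCODE 29 and was not compared. RPL28, also among the 13, had 0 pseudogenes there under its name. Shared windows of such genes may thus have been missed. RPL41 had all windows shared and 0.691%. The sources used here name neither the counting tool nor its handling of reads with several positions, and where the reads in these rows were transcribed was not tested.

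The first 60 coding bases of RPLP0 and RPS2 and of the pseudogenes that held most of their reads show how close these copies are, and RPLP1 shows a copy that held few. Capitals mark the bases that differ between gene and pseudogene. Pseudogene positions are on GRCh38 in GENCODE 29.
RPLP0: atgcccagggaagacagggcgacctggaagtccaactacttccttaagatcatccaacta
RPLP0P6, chr2:38481851-38481910, plus strand: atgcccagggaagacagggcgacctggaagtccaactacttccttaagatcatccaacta
RPS2: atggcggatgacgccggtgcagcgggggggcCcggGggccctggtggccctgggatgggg
RPS2P5, chr12:118246084-118246143, plus strand: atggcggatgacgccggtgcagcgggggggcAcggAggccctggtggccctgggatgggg
RPLP1: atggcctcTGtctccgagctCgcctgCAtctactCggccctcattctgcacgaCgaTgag
RPLP1P6, chr5:151766180-151766239, minus strand: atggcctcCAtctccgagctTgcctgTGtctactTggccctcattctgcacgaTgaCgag
RPLP0 and RPLP0P6 had 0 differences in these 60 bases and were 98.84% identical over the aligned coding sequence. RPS2 and RPS2P5 had 2 differences here and 98.75% identity. RPLP1 and RPLP1P6 had 8 differences and 92.40% identity, and 0.695% of the RPLP1 reads lay in pseudogene rows.

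**Figure D1:**
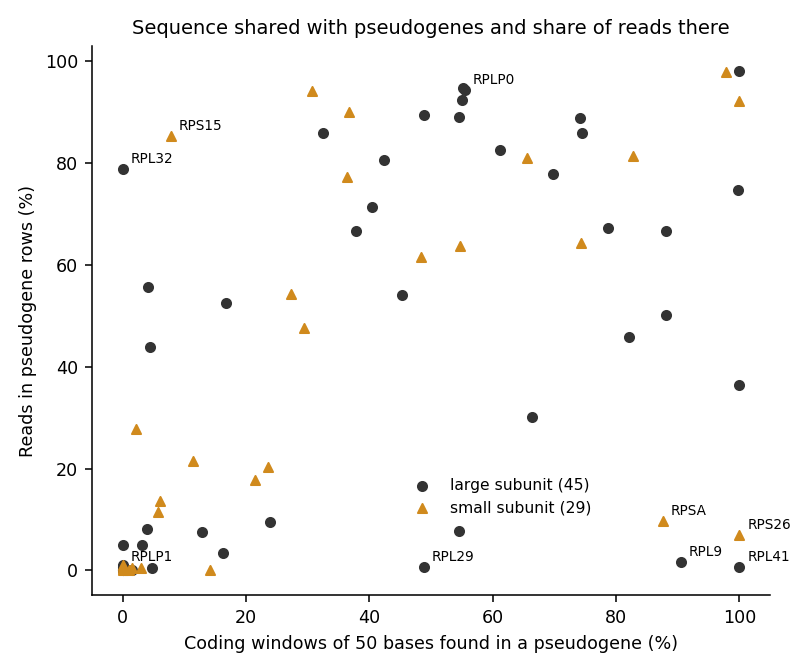
Share of each gene's coding windows of 50 bases that are found in a pseudogene of its name (horizontal axis, %) against the share of its reads, over all 6 libraries, that lay in pseudogene rows (vertical axis, %), with 45 large subunit genes as circles and 29 small subunit genes as triangles. Genes without shared windows gather at the lower left, apart from RPL32 at 78.8%, whose pseudogene with most reads could not be compared. RPL41, RPS26 and RPL9 at the lower right have many shared windows and few pseudogene reads.

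The summed gene rows were higher on average in the SCML4 libraries, but the groups overlapped. Large subunit genes summed to 6329, 6216 and 5469 CPM in SCML4 and 5674, 5052 and 5533 CPM in EV, means of 6005 ± 467 and 5420 ± 326 CPM (SD, n = 3 each), a difference of 10.8%. Small subunit genes summed to 3483, 3389 and 2707 CPM in SCML4 and 3304, 2526 and 2978 CPM in EV, means of 3193 ± 423 and 2936 ± 391 CPM, a difference of 8.75%. SCML4 replicates 1 and 2 were above every EV library in both sums, and SCML4 replicate 3 was below EV replicates 1 and 3 in both. The ratio of the large to the small sum was 1.82, 1.83 and 2.02 in SCML4 and 1.72, 2.00 and 1.86 in EV, and both sums had the same lowest library in each group.

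Leaving out 1 library changed the size of these differences. The sum of all 77 genes was 9198 ± 891 CPM in SCML4 and 8356 ± 713 CPM in EV (SD, n = 3 each), a difference of 10.1%. Without EV replicate 1 it was 14.3%, made of 13.5% for the large and 16.0% for the small subunit, without EV replicate 2 it was 5.2%, and without SCML4 replicate 3 it was 16.2%. With pseudogene rows added, the sum was 31353, 29459 and 28832 CPM in SCML4 and 26458, 27777 and 29161 CPM in EV, a difference of 7.49%, and 4.96% without EV replicate 1. Here too SCML4 replicate 3 lay below EV replicate 3.

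**Figure D2:**
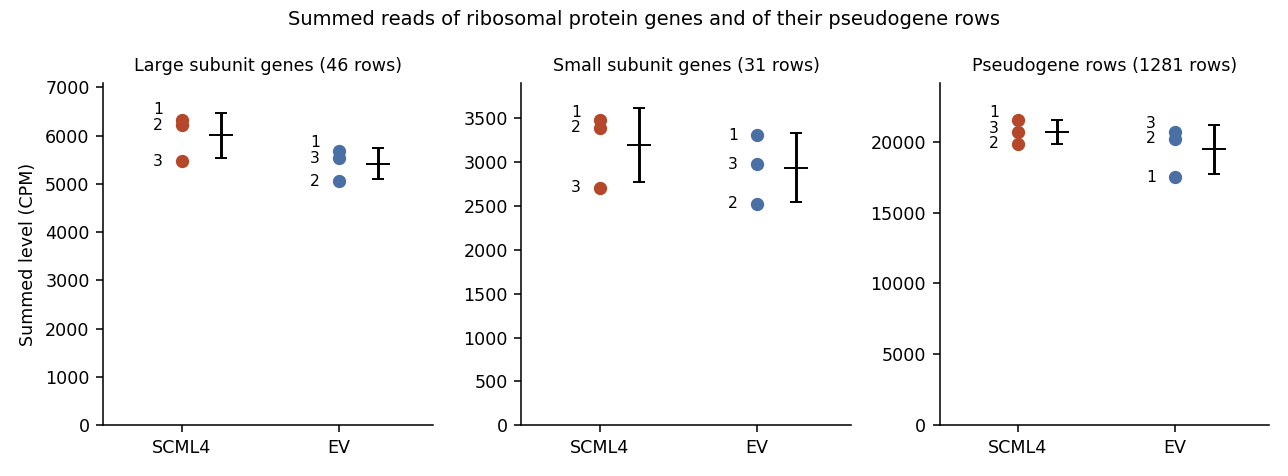
Summed level in CPM (vertical axes, from 0) of the large subunit genes, the small subunit genes and the pseudogene rows in each library, SCML4 left of EV, with the replicate number beside each point and the mean ± SD of 3 libraries to its right. SCML4 replicate 3 and EV replicate 2 are the lowest of their groups in both gene sums, whereas EV replicate 1 is the lowest of all 6 libraries in the pseudogene rows.

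Gene by gene, the highest library was most often SCML4 replicate 1 and the lowest EV replicate 2. SCML4 replicate 1 was the highest of the 6 libraries in 31 of 76 genes (40.8%), against 15.8% of all 14250 genes tested, and EV replicate 1 was the highest in 18 (23.7%), against 27.9%. EV replicate 2 was the lowest in 41 genes (53.9%), against 14.2% of all genes. On the log2(CPM + 1) scale the median deviation of the 76 genes from their own mean was 0.16, 0.10 and -0.10 in the SCML4 libraries and 0.05, -0.17 and -0.04 in the EV libraries. The same medians over all genes lay between -0.00 and 0.02. In EV replicate 2 the medians of the large and the small subunit were -0.16 and -0.20.

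**Figure D3:**
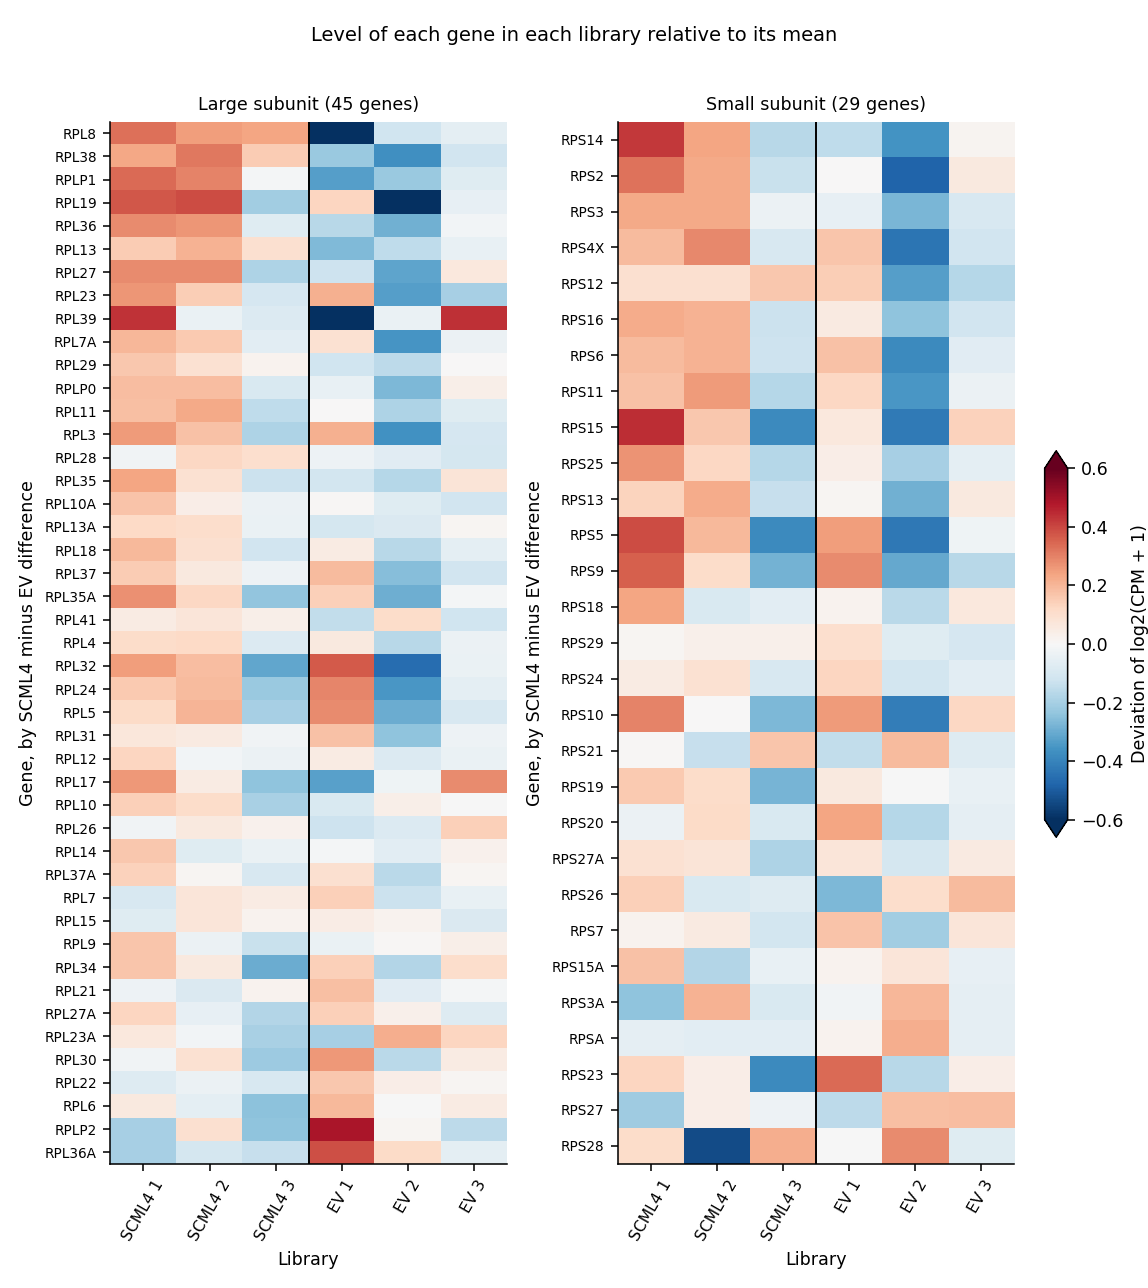
Deviation of log2(CPM + 1) from the gene's mean over 6 libraries, for 45 large subunit genes (left) and 29 small subunit genes (right), with SCML4 libraries left of EV libraries, and genes in order of the SCML4 minus EV difference. Red is above and blue below the mean, colours saturate at 0.6, and the columns of SCML4 replicates 1 and 2 are red in most rows while that of EV replicate 2 is mostly blue.

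No ribosomal protein gene passed the adjusted threshold. SCML4 minus EV was fitted with limma-trend on log2(CPM + 1) for 14250 genes with a mean of at least 1 CPM, all 76 ribosomal protein genes with reads among them, with Benjamini-Hochberg adjustment over all of them and a threshold of 0.05. At this threshold 0 of 76 were called in either direction, against 0.00702% of all genes called higher (SCML4 alone) and 0.0% called lower, and limma-voom likewise called 0. At an unadjusted p under 0.05, 8 genes (10.5%) were higher, against 3.33% of all genes, and 0 were lower, against 1.94%. The difference was positive in 54 genes (71.1%), against 52.3% of all genes. It was positive in 35 of 46 large and 19 of 30 small subunit genes.

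The differences were small. The median was 0.083 on the log2 scale, 0.092 for the large and 0.050 for the small subunit, against 0.008 for all genes. The median half-width of the 95% interval was 0.26, and every one of the 76 intervals lay between -1 and 1, that is, short of a doubling or a halving. SCML4 and EV libraries did not overlap in 9 genes. In 7 of these (9.21%) SCML4 was on the higher side, against 6.27% of all genes, and in 2 (2.63%) on the lower side, against 5.38%.

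Large subunit genes with the smallest p-values included a core protein and a small peripheral one. RPL8 had 369, 348 and 345 CPM in SCML4 and 188, 269 and 281 CPM in EV. All SCML4 libraries were above all EV libraries, and EV replicate 1 was far below the other EV libraries. The log2 difference was 0.55 (SE 0.12, 95% interval 0.29 to 0.81), and limma-trend gave an adjusted p of 0.712. Over the alternatives the difference ran from 0.37 to 0.65 and the adjusted p from 0.0161 to 0.990.

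RPL38, a small protein known in the mouse for its part in translating homeobox transcripts, had 61.6, 65.4 and 58.1 CPM in SCML4 and 44.7, 40.3 and 48.2 CPM in EV. The groups lay well apart and each was narrow, with means of 61.7 ± 3.66 and 44.4 ± 4.0 CPM (SD, n = 3 each). The log2 difference was 0.47 (SE 0.10). Its adjusted p was 0.712 in limma-trend and lay between 0.0113 and 0.990 over the alternatives.

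RPL13, a protein of the large subunit body, had 230, 239 and 221 CPM in SCML4 and 172, 186 and 200 CPM in EV, with no overlap and a log2 difference of 0.31 (SE 0.08). Beside it, 89.5% of the reads under this name lay in pseudogene rows, and with those rows added the difference was 0.20, or 0.09 without EV replicate 1. RPL29, a basic protein that also binds heparin, had the highest level of all for its coding length and 736, 699 and 667 CPM in SCML4 against 605, 589 and 658 CPM in EV. Its groups did not overlap, by a narrow margin, and the log2 difference was 0.18 (SE 0.08). RPL36, another peripheral protein, had 93.0, 91.9 and 72.5 CPM in SCML4 and 67.8, 62.3 and 75.3 CPM in EV, a log2 difference of 0.32 (SE 0.11). RPL19, which takes part in a bridge between the subunits, had 261, 264 and 174 CPM in SCML4 and 220, 129 and 194 CPM in EV, a log2 difference of 0.37 (SE 0.18), which ran from 0.15 without EV replicate 2 to 0.57 without SCML4 replicate 3. In both of these SCML4 replicate 3 lay below EV replicate 3. Adjusted p was 0.864 for each of these 4 genes in limma-trend.

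Of the 2 genes on the lower side without overlap, RPL36A lies close to the exit site for transfer RNA and RPL22 is a protein whose loss mice tolerate, but at the cost of developing T cells. RPL36A had 12.4, 13.3 and 13.0 CPM in SCML4 and 19.1, 15.7 and 13.8 CPM in EV, a log2 difference of -0.30 (SE 0.15). EV replicate 1 was the highest of the 6 libraries. RPL22 had 146, 150 and 144 CPM in SCML4 and 172, 158 and 155 CPM in EV, a log2 difference of -0.14 (SE 0.08). With pseudogene rows added, which held 66.7% of the RPL22 reads, the difference was 0.06, and it was -0.03 when EV replicate 1 was also left out. For RPL36A the difference was -0.19 without EV replicate 1. The adjusted p in limma-trend was 0.864 for both.

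Genes of the stalk, the arm that recruits elongation factors, had differences of both signs. RPLP1 had 269, 261 and 211 CPM in SCML4 and 169, 182 and 202 CPM in EV, without overlap, and its log2 difference was 0.42 (SE 0.10, adjusted p 0.860 in limma-trend, and 0.0197 to 0.990 over the alternatives). Its partner RPLP2 had 34.3, 42.3 and 33.3 CPM in SCML4 and 56.0, 39.9 and 35.3 CPM in EV, a log2 difference of -0.23 (SE 0.15, adjusted p 0.875). The RPLP2 groups overlapped and the difference was -0.04 without EV replicate 1, its highest library. For RPLP0, whose values are given above, the groups overlapped and the log2 difference was 0.18 (SE 0.10, adjusted p 0.864). It was 0.09 without EV replicate 2, 0.07 with the pseudogene rows added, and 0.01 with these rows and without EV replicate 1. The difference between RPLP1 and RPLP2 was itself not tested.

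RPL5 and RPL11 bind the 5S ribosomal RNA and, when ribosome assembly fails, inhibit MDM2. RPL5 had 168, 179 and 135 CPM in SCML4 and 189, 126 and 145 CPM in EV. RPL11 had 173, 179 and 137 CPM in SCML4 and 153, 134 and 145 CPM in EV. Both pairs of groups overlapped, with log2 differences of 0.08 (SE 0.13) and 0.17 (SE 0.10) and adjusted p of 0.947 and 0.864 in limma-trend. Without 1 library, the difference ran from -0.05 (EV replicate 2 left out) to 0.24 (EV replicate 1 left out) for RPL5 and from 0.10 (SCML4 replicate 2 left out) to 0.28 (SCML4 replicate 3 left out) for RPL11.

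In the small subunit, RPS3 was the single gene without overlap. RPS3, a protein at the entry of the messenger RNA channel, had 148, 148 and 123 CPM in SCML4 and 122, 104 and 118 CPM in EV. Its lowest SCML4 and highest EV library were nearly level, and the log2 difference was 0.28 (SE 0.09, adjusted p 0.864 in limma-trend). RPS14, whose loss of a copy underlies the anaemia of a myelodysplastic syndrome, had 178, 156 and 118 CPM in SCML4 and 119, 103 and 134 CPM in EV, and here SCML4 replicate 3 was below EV replicates 1 and 3. The log2 difference was 0.33 (SE 0.13, adjusted p 0.864), and it ran from 0.20 without SCML4 replicate 1 to 0.50 without SCML4 replicate 3.

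RPS6, the substrate of the S6 kinases downstream of mTOR, had 553, 560 and 444 CPM in SCML4 and 548, 372 and 463 CPM in EV. The 2 groups overlapped widely, with a log2 difference of 0.18 (SE 0.13, adjusted p 0.877 in limma-trend). RPS2, RPS4X, RPS12 and RPS16, all on the body or head of the small subunit, had log2 differences of 0.28, 0.26, 0.24 and 0.20, SE 0.11 to 0.14, each with overlap and an adjusted p of 0.864. In all 4, EV replicate 2 was the lowest library, and without it their differences were 0.11, 0.10, 0.13 and 0.13, and that of RPS6 was 0.035. RPS4X is an example, with 172, 184 and 141 CPM in SCML4 and 169, 111 and 139 CPM in EV.

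**Figure D4:**
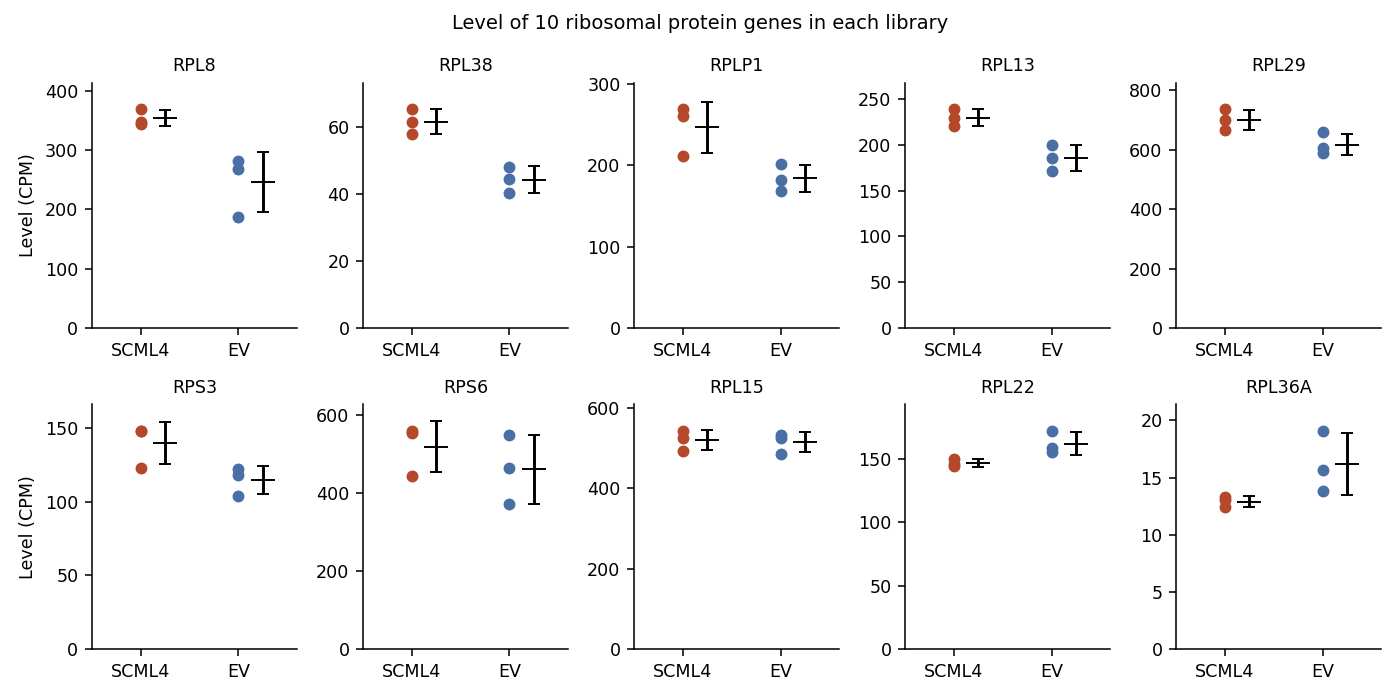
Level in CPM (vertical axes, from 0) of 10 ribosomal protein genes in each library, SCML4 left of EV, with points for libraries and the mean ± SD of 3 libraries beside them. RPL8, RPL38, RPLP1, RPL13, RPL29 and RPS3 have SCML4 libraries above all EV libraries, RPL22 and RPL36A have them below, and RPS6 and RPL15 overlap.

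Levels per kilobase of coding sequence spread over 2 orders of magnitude between genes whose products are needed in equal numbers. RPL29 was highest, with 1380 CPM per kb of coding length over all libraries, followed by RPL15 with 847 and RPS23 with 798. At the low end, RPL39 had 20.6 and RPS10 12.9 CPM per kb. These are levels of the gene rows alone. RPL39 and RPS10 had 98.1% and 77.3% of their reads in pseudogene rows, and RPL29, RPL15 and RPS23 had 0.647%, 67.2% and 61.5%.

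None of these 5 genes passed the adjusted threshold. RPL15, an early assembly protein of the large subunit, had 493, 544 and 525 CPM in SCML4 and 534, 526 and 487 CPM in EV, a log2 difference of 0.01 (SE 0.07). Its 95% interval, -0.15 to 0.17, was narrow, since its libraries differ little. RPS23, at the decoding centre, had 370, 348 and 259 CPM in SCML4 and 428, 301 and 347 CPM in EV, a log2 difference of -0.14 (SE 0.14), with overlap. RPL39 and RPS10 had means of 3.37 ± 0.906 and 6.42 ± 1.46 CPM in SCML4 and 2.93 ± 1.49 and 6.35 ± 1.68 CPM in EV (SD, n = 3 each). At these depths RPL39 had as few as 14 reads in a library. The 95% intervals of the log2 difference were wide, -0.39 to 0.80 for RPL39 and -0.44 to 0.49 for RPS10.

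Leaving out EV replicate 1 raised the number of small p-values and called 1 gene. In limma-trend, RPL8 was then called, with 354 ± 12.6 CPM in the 3 SCML4 libraries against a mean of 275 CPM in EV replicates 2 and 3, with a log2 difference of 0.37 (adjusted p 0.0212). Of 14232 genes, 0.0703% were called higher and 0.0281% lower in that fit. limma-voom without this library also called 1 of the 76 genes, RPL8, with 0.0632% of all genes called higher. At an unadjusted p under 0.05, 26 genes (34.2%) were higher, 16 large and 10 small, against 4.07% of all genes, and 0 were lower, against 2.63%. The median difference was 0.131, with 0.131 for the large and 0.133 for the small subunit, against 0.006 for all genes. SCML4 and the remaining EV libraries did not overlap in 19 genes, 15 (19.7%) on the higher side, against 12.1% of all genes, and 4 (5.26%) on the lower side, against 10.0%. The difference was larger in 52 of 76 genes and had the same sign in 61. It was positive in 58 genes (76.3%), against 51.8% of all genes. RPL19 had 0.53 and RPS4X 0.40, against 0.37 and 0.26 with all libraries, while RPL8 had 0.37 against 0.55.

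EV replicate 2, the low library for these genes, then made up one of the only 2 EV libraries left. Without EV replicate 2 the median difference was 0.024, with 44 genes positive (57.9%, against 51.3% of all genes) and 4 higher at an unadjusted p under 0.05 (5.26%, against 4.19%). Without it RPL19 was at 0.15 and RPS4X at 0.10. Without SCML4 replicates 1 and 2 in turn, 4 genes each were higher at that p, against 2.59% and 1.96% of all genes. Without SCML4 replicate 3 the median was 0.165 and 21 genes (27.6%) were higher, against 2.35%. Without EV replicate 3, 12 genes (15.8%) were higher, against 4.45%, and 2 (2.63%) lower, against 2.35%. The number of small p-values thus depended on which library was left out. Fits that weight libraries by their own spread gave EV replicate 1 a weight of 0.315 in limma-voom and the others 0.811 to 1.80. With these weights, 3 genes were called higher, RPL38, RPL8 and RPLP1, with adjusted p of 0.0246, 0.0305 and 0.0415 in limma-voom, against 0.0772% of all genes called higher. In limma-trend with weights, 3 genes were called too, RPL38, RPL8 and RPLP1, with adjusted p of 0.0113, 0.0202 and 0.0197, against 0.105% of all genes called higher.

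**Figure D5:**
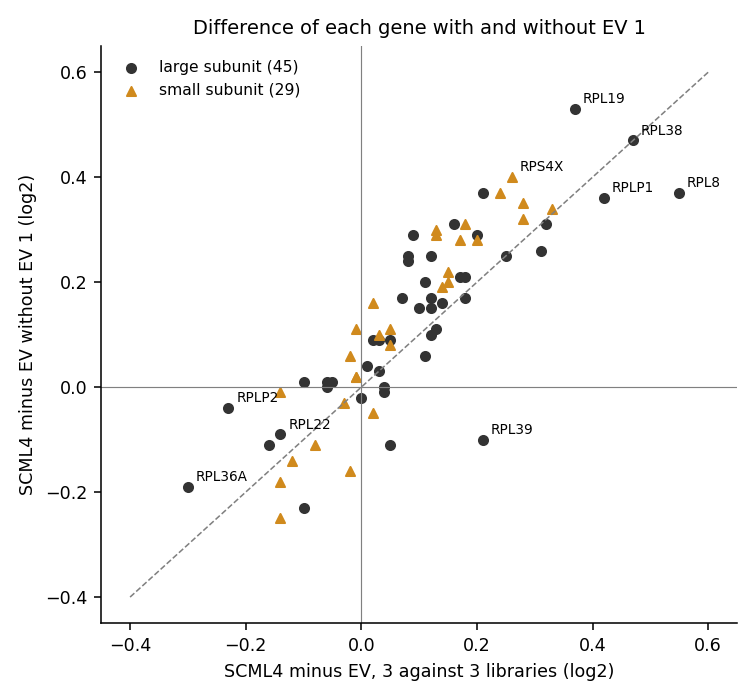
SCML4 minus EV difference of each gene (log2) with all 6 libraries (horizontal axis) and without EV replicate 1 (vertical axis), for 45 large subunit genes (circles) and 29 small subunit genes (triangles), with a dashed line where both are equal. Most points lie above the dashed line, RPL8 lies below it at 0.55 and 0.37, and RPL39 is at 0.21 with and -0.10 without EV replicate 1.

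Adding each gene's pseudogene rows to its own row left the calls among these genes as they were. In limma-trend on these sums, 0 of 76 genes were called, against 0.0212% of 14136 genes called higher. Without EV replicate 1, RPL8 alone was called among the 76, with an adjusted p of 0.0161, against 0.0708% of all genes called higher. The median difference of the sums was 0.098, with 0.091 for the large and 0.134 for the small subunit, the reverse of the order in the gene rows. It was positive in 57 genes (75.0%, against 52.2% of all genes). Without EV replicate 1 the median of the sums fell to 0.085, with 51 positive (67.1%, against 51.7%). In the gene rows that omission raised the median from 0.083 to 0.131. By shared sequence, in the gene rows, the 13 genes with no window found in a pseudogene had a median difference of 0.20 and 12 positive, against 52.3% of all genes. The 35 genes with some windows but under 50% had 0.12 and 27 positive, and the 28 genes with 50% or more had 0.02 and 15 positive. The 13 include RPL32 and RPL28, whose shared windows may have been missed.

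Base composition varied along with the difference, in these genes as in others. The log2 difference and the GC content of the coding sequence had a Spearman correlation of 0.35 across the 76 ribosomal protein genes and 0.36 across 11536 coding genes tested, with no p since genes share the libraries. GC content was not the only such feature. Across the 76 genes the difference had a correlation of 0.44 with the mean CPM of the gene row and -0.32 with the share of reads in pseudogene rows. Each library was then corrected for GC content and length of the whole transcript, not of the coding sequence. Whole transcripts gave implausible ends, as stated below. After this correction, the correlation with coding GC content was 0.18 across the 76 genes. The median difference was then 0.050, with 0.065 for the large and -0.005 for the small subunit, 0 of 76 were called, against 0.0224% of 13422 genes called higher, and RPL8, RPL38 and RPLP1 had differences of 0.43, 0.43 and 0.40. RPL29, RPL36, RPS2 and RPS16 then had 0.09, 0.19, 0.18 and 0.12, against 0.18, 0.32, 0.28 and 0.20 before. Within libraries, the deviations of the 76 genes had correlations with GC content of 0.38, 0.25 and 0.02 in the SCML4 libraries and -0.22, -0.17 and -0.14 in the EV libraries. The part of base composition in the difference was not tested further.

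Other genes of the ribosome and its control showed no called change. FAU, outside the rule, had a log2 difference of 0.08 (SE 0.11). Of 24 other tested translation genes with oligopyrimidine tracts, 0 were called, 14 were positive and the median was 0.02. At an unadjusted p under 0.05 in limma-trend, 2 of the 24 were higher and 1 lower, against 3.33% and 1.94% of all genes. Among them EEF2, the translocation factor, had 2530, 2460 and 2440 CPM in SCML4 and 2010, 2150 and 2250 CPM in EV, without overlap (log2 difference 0.21, SE 0.08, adjusted p 0.864 in limma-trend). SNHG5, a small nucleolar RNA host gene, had 21.0, 18.3 and 21.9 CPM in SCML4 and 28.6, 25.8 and 25.2 CPM in EV, without overlap on the lower side (log2 difference -0.37, SE 0.12, adjusted p 0.864).

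With all libraries, genes that build ribosomes had medians near that of all genes. These were -0.01 for 84 assembly factors, 37 of them positive, -0.00 for 15 genes of RNA polymerase I and its factors, 7 positive, and 0.01 for 17 regulators of translation such as MTOR and LARP1, 9 positive. Without EV replicate 1 the assembly factors had a median of -0.07 with 21 of 84 positive, against 51.8% of all genes, and the RNA polymerase I genes -0.03 with 4 of 15 positive. The 6 tested paralogues of ribosomal proteins had a median of 0.03, with 3 positive, and among them RPS27L had 20.7, 23.1 and 22.3 CPM in SCML4 and 23.4, 25.6 and 26.3 CPM in EV. The 75 tested mitochondrial ribosomal proteins had a median of 0.05, with 47 positive. The 114 tested pseudogene rows had a median of 0.07, with 75 positive, against 52.3% of all genes, and at an unadjusted p under 0.05, 12 were higher and 3 lower, against 3.33% and 1.94% of all genes. Without EV replicate 1 their median was 0.04. In each of these lists 0 genes were called in limma-trend.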

How the data were processed

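Per the labels' protocols, TRIzol RNA went into a SMARTer mRNA-Seq kit. The submitters' processing notes name FastQC, STAR, SAMtools and build hg19. The counting tool is not given in the sources used here, nor is the annotation. Per the file headers, the deposited values are FPKM in 1 column per library.

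FPKM are whole multiples of the value of 1 read. From these steps reads and library totals were recovered, and 100.0% of 23897 rows above 0 came out whole within 0.002 of a read (up to 0.02 for large counts). In 716 rows, 1 of them a member, reads were multiplied by a whole factor so that the implied length was whole. Of the reads, 99.63% to 99.65% lay on table rows and 5.57% to 6.21% on mitochondrial genes. A count of 0 allows 3 reads, 0.290 to 0.335 CPM, counting error only. Gene lengths implied by the FPKM (516 to 15989 bases for the members) are not those of the named genes, so levels between genes use GENCODE 29 coding lengths, as whole transcripts gave implausible ends. Exonic length had been planned.

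limma 3.58.1 in R 4.3.3 was used on log2(CPM + 1), pseudocount 1, mean of at least 1 CPM, and was checked on simulated data. Sums have no test. The smallest exact permutation p for 3 against 3 libraries is 0.1. Alternatives were other pseudocounts, filters, scalings, weights, a replicate block and leaving out each library. Another was a GC and length correction on whole transcripts (94.2% of genes). Fits of summed rows and limma-voom without EV replicate 1 were added after seeing the data. Replicate numbers were not taken to pair libraries. The pattern for pseudogene rows also matched the coding gene RPS19BP1, which was left out. Genes named are the 8 of smallest p in each subunit, the stalk and 5S proteins, RPS6, RPL22, those called in an earlier fit and the 3 highest and 3 lowest per kb, but some of the genes this would name are not reported here or drawn. RPL32, RPL41, RPL9 and RPS26 were chosen after their values were seen. Members and lists were chosen with earlier results of these data known.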

Additional observations from a re-analysis of the deposited data

How the results depend on the processing

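Over all genes, 1 was called with all libraries. The count was 4 at an adjusted p under 0.10, 0 on log2(FPKM + 1), 14 with library weights in limma-voom and 20 in limma-trend, 2 with median-of-ratios scaling, 3 with quantile normalization, 3 after the GC and length correction, and 1 to 14 without 1 library (14 without EV replicate 1). It was 13 in limma-voom without EV replicate 1, 3 with pseudogene rows summed and 14 with summed rows without EV replicate 1. Among the 76 ribosomal protein genes, 0 were called with all libraries, 3 with library weights in either fit, 0 to 1 without 1 library, and 1 in limma-voom or with summed rows without EV replicate 1. The block on replicate number called 3 genes and 0 ribosomal protein genes. Deviations of same-numbered libraries had correlations of -0.056, -0.112 and -0.045, so the numbers were not taken to pair libraries. Among differently numbered libraries, the correlation was 0.139 for SCML4 replicate 2 with EV replicate 1. It was 0.124 for SCML4 replicate 3 with EV replicate 2 and 0.109 for SCML4 replicate 1 with EV replicate 3. The other such pairs lay between -0.071 and -0.033. Whether libraries were paired under other numbers was not tested.

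The median difference moved by less than the SD between libraries (0.124) under each of 24 alternatives. That SD is larger than the median itself, 0.083 for both subunits, so this comparison cannot show that the sign holds. It ran from 0.05 to 0.144 for both subunits under the 18 alternatives that are not a single omission, from -0.005 to 0.144 for the small subunit, and from 0.024 to 0.165 without 1 library. The difference of the summed level ran from 5.2% to 16.2% without 1 library and from 9.7% to 10.2% under other scalings.

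Of 24 named genes under these alternatives, 547 of 573 values kept their sign and side of the threshold, 9 passed it (RPL8, RPL38, RPLP1) and 17 changed sign. RPL39 was -0.006 and -0.035 with weights in limma-voom and limma-trend, -0.14 in limma-voom and -0.10 with summed rows without EV replicate 1. RPS23 was 0.007 and 0.018 with weights. RPS10 was -0.002 with quantile normalization and -0.06 after the GC correction. RPL22 was 0.06 with rows summed and -0.03 when EV replicate 1 was also left out. Without 1 library, RPL5 ran from -0.05 to 0.24, RPL15 from -0.027 to 0.05, RPS23 from -0.26 to 0.015, RPL39 from -0.10 to 0.48 and RPS10 from -0.18 to 0.16. The cause of these changes was not tested. With 3 libraries a group, differences under about 0.26 on the log2 scale were within the typical interval.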
